A study of Homo sapiens with 12 samples.

Results

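Wild-type HAP1 cells were sequenced with a pair of library kits from the same maker, and the gene counts of the 2 kits were set against each other gene by gene. HAP1 is a near-haploid human cell line derived from a chronic myelogenous leukemia. The 6 wild-type libraries were taken by their titles and genotype label (WT) from the 12 libraries of the series. The other 6 came from HAP1 cells in which SETDB1, a histone H3 lysine methyltransferase, had been knocked out. The 3 directional libraries were made with a kit that keeps the strand of the RNA (NEBNext Ultra II Directional), and the 3 non-directional libraries with the kit that does not keep it (NEBNext Ultra II). All 6 shared the wild-type genotype, the culture medium (IMDM with serum and antibiotics) and the column-based extraction of total RNA, and carried no drug treatment or transgene. The titles call the 3 libraries of each kit biological replicates. Nothing in the labels says whether they came from separate cultures, so p-values measure the spread between these libraries only. Kit and any other step that differed between the 2 sets cannot be told apart.

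Both strands of DNA can be copied into RNA. Genes on opposite strands can meet at their 3′ ends (tail to tail), overlap at their 5′ ends (head to head) or lie one within the other, and many annotated antisense genes lie inside the exons of a coding gene. A library that has lost the strand cannot assign a read from shared bases to either gene, and a counter such as HTSeq then lists the read as ambiguous. A stranded library assigns it by strand, so the strand that the counter is told to use decides which gene receives it. That setting is not given in the sources used here.

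The bases shared by such pairs are shown for the genes that the results turn on. The sequences are from GRCh38, 5′ to 3′ on the strand of the gene named, and capitals mark bases that also lie in an exon of the gene on the other strand. GAPDH encodes a glycolytic enzyme, and the antisense gene AC006064.4 lies wholly within its exons. GAPDH and AC006064.4 are read here at chr12:6537764-6537823 (plus strand) and chr12:6537794-6537823 (minus strand).
GAPDH: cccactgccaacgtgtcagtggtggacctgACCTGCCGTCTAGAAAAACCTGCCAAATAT
AC006064.4: ATATTTGGCAGGTTTTTCTAGACGGCAGGT
TUBA1B encodes an alpha-tubulin, a subunit of microtubules. TUBA1B and the antisense gene AC011603.2 are read at chr12:49128850-49128909 (minus strand) and chr12:49128850-49128879 (plus strand).
TUBA1B: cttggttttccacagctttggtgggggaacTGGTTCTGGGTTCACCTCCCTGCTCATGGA
AC011603.2: TCCATGAGCAGGGAGGTGAACCCAGAACCA
TUBB encodes a beta-tubulin. TUBB and the antisense gene AL662797.1 are read at chr6:30723848-30723907 (plus strand) and chr6:30723848-30723877 (minus strand).
TUBB: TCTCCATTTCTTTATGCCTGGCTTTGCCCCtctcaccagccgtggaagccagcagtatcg
AL662797.1: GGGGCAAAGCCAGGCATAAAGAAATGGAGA
The coding windows of a tail-to-tail and a head-to-head pair are those of RPS23 (a ribosomal protein, chr5:82276130-82276159, minus strand, meeting ATG10) and PFN1 (profilin, an actin-binding protein, chr17:4948359-4948388, minus strand, meeting ENO3).
RPS23: GTTTCTCTTTTGGCCctatacaaaggcaag
PFN1: gggtggaacgcctacATCGACAACCTCATG
In the mitochondrial genome MT-ND5 (chrM:14119-14148, plus strand) and MT-ND6 (chrM:14149-14178, minus strand) end at neighbouring bases without sharing any. In these 2 the capitals mark the last 3 bases, the stop codon.
MT-ND5: ctcatcctaaccctactcctaatcacaTAA
MT-ND6: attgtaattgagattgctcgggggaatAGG

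The 2 kits were sequenced to a like depth, but few directional reads were assigned to genes. Reads listed as lying in a gene, in no gene or in more than one gene (classified reads) came to between 10106592 and 12842195 per library over all 6. Of these, 5.27% ± 0.0034 lay in genes in the directional libraries and 86.5% ± 0.071 in those without strand (SD, n = 3 each). Gene reads therefore numbered 532021 to 676691 against 8921959 to 10199215 per library, and 3 counts, taken as the floor, stood for 4.43 to 5.64 and 0.294 to 0.336 counts per 1000000 gene reads (CPM). Intervals and floors cover counting error only, since no molecular identifiers were used. The directional libraries placed 94.6% of classified reads in no gene and 0.140% in more than one gene, and the non-directional libraries 4.41% and 9.04%. The directional tables also listed 0 reads as not uniquely aligned, against 797850 to 897413 in the non-directional tables, and whether such reads were removed before counting is not stated. Each of the 3 shares separated the 2 kits without overlap. An exact permutation test (two-sided) gave p = 0.1 for each share, its lower limit with 3 libraries a side.

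The reads that did fall in genes were of different kinds. Protein-coding genes took 46.1% ± 0.11 of directional and 98.4% ± 0.025 of non-directional gene reads, and antisense genes took 45.8% ± 0.043 against 0.216% ± 0.0039 (SD, n = 3 each). Genes that share exon bases with a gene on the other strand held 91.8% of directional and 38.7% of non-directional gene reads. The 10 genes with most reads held 15.2% and 3.48%. At 532021 gene reads drawn from each library, 14404 genes were detected on average in the directional and 13837 in the non-directional libraries, so the number of genes with a read differed little while the reads were spread differently among them.

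For each gene the directional share of gene reads was compared with the non-directional share in edgeR (quasi-likelihood test, Benjamini-Hochberg adjusted p under 0.05). Of 14709 genes tested, 14025 differed (95.3%), 3683 with a higher directional share (25%) and 10342 with a lower one (70.3%). The median log2 ratio of directional to non-directional share was −2.79, with quartiles at −3.87 and 0.53. Of the calls, 26.3% were higher and 73.7% lower with shares of gene reads, 48.1% and 51.9% with TMM scaling, 53.0% and 47.0% with DESeq2 size factors, 56.3% and 43.7% with the DESeq2 Wald test, and 16.3% and 83.7% per classified read. With nearly every gene called and the split set by the scaling, a call says little about a single gene. Medians of overlap classes below are therefore also given relative to the median of all genes. Log2 ratios of single genes are given as fitted, without that step, and are to be set beside the median of −2.79.

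Overlap with the other strand went with the ratio. Of the 3683 genes with a higher directional share, 91.3% shared exon bases with a gene on the other strand, against 49.7% of all genes tested and 33.8% of those with a lower share. Genes were called nested where exon bases were shared and the gene's span, introns included, lay within its partner's span or held it. Among 2233 nested genes, 1212 were higher (54.3%) and the median log2 ratio was 3.52, which is 6.31 above that of all genes. Among 1949 tail-to-tail genes 898 were higher (46.1%), with a median 2.59 above all genes, and among 1865 head-to-head genes 588 (31.5%), with a median 0.81 above. Of 1259 genes with several kinds of overlap 665 were higher (52.8%), between the nested and the tail-to-tail genes. The share fell to 6.25% of 2208 genes whose bodies overlapped another gene only outside its exons, to 5.42% of 2471 with a neighbour on the other strand within 5 kb, and to 1.76% of 2724 with none that near. The 4 classes that share exon bases lay above the 25% of higher calls over all genes, and the 3 that share none lay below it. Part of this is fixed by the filter on low counts, which a gene could pass through the directional libraries alone. Of the nested genes 2233 of 4812 annotated passed it, 584 of them with 0 reads in every non-directional library, and the tail-to-tail, head-to-head and mixed classes held 111, 66 and 78 such genes. With at least 10 counts in all 6 libraries, the medians lay above that of all genes by 0.47 in nested, 0.18 in head-to-head, 1.595 in tail-to-tail and 1.86 in mixed genes. They lay at −2.44, −2.49 and −2.95 relative to all genes in the 3 classes that share no exon bases.

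Gene type followed the same division. Of 5583 annotated antisense genes 1713 passed the filter, 621 of them with 0 reads in every non-directional library. For those 621 a high directional share was a condition of being tested. The same held for any gene, of whatever type, below the filter level of about 2.08 CPM in every non-directional library. AC011603.2 and AL662797.1 below are antisense genes of this kind, so the selection reached beyond the 621. Of these 1713, 1625 had a higher directional share (94.9%), with a median log2 ratio of 9.36, or 7.74 with genes at 0 in every non-directional library set at the ratio that 3 counts in a library of mean size allow. Of 11904 protein-coding genes, 1467 were higher (12.3%) and 9839 lower, with a median of −3.11. Of 7629 annotated long intergenic RNA genes 312 passed the filter, 60 of them with 0 reads in every non-directional library. Of these 312, 178 were higher (57.1%) and 122 lower (39.1%), against 25% and 70.3% of all genes. In all, 841 of the genes with a higher share had 0 reads in each of the 3 non-directional libraries, so their fitted ratios are not given as sizes.

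AC006064.4 (chr12:6537794-6538370), inside GAPDH, had the most directional reads of all genes, with 18913, 21191 and 16121, and 0 in each non-directional library. Its directional share was at least 97635-fold higher, taking 3 counts in a non-directional library of mean size as the floor, here and below. All 422 of its exon bases lie in GAPDH exons, so no base of it can be counted alone without strand. GAPDH itself (chr12:6533927-6538374) showed the reverse, with 97, 123 and 116 directional against 18589, 17499 and 17125 non-directional reads. In reads per 1000000 classified reads (RPM), AC006064.4 reached 1623 ± 27.5 in the directional libraries and GAPDH 1617 ± 70.7 in the non-directional libraries (SD, n = 3), a ratio of 1.00. These values cover different bases, since the shared bases are 14.2% of the GAPDH exon bases. The ratios of the pairs below also set whole genes of unlike bases against each other.

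The tubulin genes gave the other leading pairs. AC011603.2 (chr12:49127782-49147869), which shares 1309 bases with TUBA1B, had 17208, 19630 and 15353 directional and 1, 0 and 1 non-directional reads, while TUBA1B had 17, 25 and 13 against 4545, 4326 and 4068. AL662797.1 (chr6:30723105-30723877), which shares 538 bases with TUBB, had 11290, 13061 and 9881 directional and 1, 1 and 2 non-directional reads. AC125611.3 (chr12:49265156-49273306), which shares 666 bases with TUBA1C (another alpha-tubulin gene), had 8490, 9810 and 7380 directional reads and 0 without strand, at least 44577-fold higher. In each pair the antisense gene was high in all 3 directional libraries and the kits did not overlap. The directional RPM of the antisense gene was 3.84 times the non-directional RPM of TUBA1B, 0.661 times that of TUBB and 2.12 times that of TUBA1C.

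Antisense genes inside other abundant transcripts made up the rest of the highest ratios. AL138963.3, inside TPT1 (a translationally controlled tumour protein), had 7582, 8381 and 6492 directional reads and a share at least 39020-fold higher. AL133415.1 lies inside VIM (vimentin, an intermediate filament), AC145207.2 inside ARHGDIA, AC034102.4 inside PA2G4 (a growth-regulated RNA-binding protein) and AC091180.3 inside PHB (prohibitin, of the mitochondrial inner membrane). These 4 had at least 12548-fold, 10675-fold, 9417-fold and 9162-fold higher directional shares, with 1510 to 2613 directional reads and 0 non-directional reads in every library. Their directional RPM was 1.04, 0.788, 0.514 and 0.581 times the non-directional RPM of their partners.

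Coding genes that meet an abundant gene tail to tail were also high. ATG10 (chr5:81972025-82276857), an enzyme of autophagy, shares 374 bases with RPS23. It had 6814, 7484 and 5834 directional and 102, 68 and 78 non-directional reads, a log2 ratio of 10.31 (SE 0.057; edgeR adjusted p under the smallest number the software holds, as for the other ratios in this paragraph and the next). SNX22 (chr15:64151715-64157481), a sorting nexin, shares 519 bases with PPIB, a cyclophilin of the endoplasmic reticulum, and had 6536, 7226 and 5570 against 256, 247 and 240 reads (log2 ratio 8.67, SE 0.050). GPS2 (chr17:7311324-7315564), a subunit of a corepressor complex, shares 241 bases with the translation factor gene EIF5A and had 5044, 5721 and 4590 against 8, 5 and 7 reads (log2 ratio 13.50, SE 0.076). BEST1 (chr11:61949821-61965515), a chloride channel known from the retinal pigment epithelium, shares 1267 bases with FTH1, the ferritin heavy chain. It had 4516, 5149 and 3918 directional and 1, 3 and 1 non-directional reads. None of these 4 genes was near these levels without strand, and the kits did not overlap in any of them. Their directional RPM was 2.13, 3.03, 0.654 and 6.99 times the non-directional RPM of the partner.

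Head-to-head genes reached lower directional levels. ENO3 (chr17:4948092-4957131), the muscle form of the glycolytic enzyme enolase, shares 111 bases with PFN1 and had 3805, 4364 and 3257 directional against 83, 55 and 98 non-directional reads (log2 ratio 9.56, SE 0.059). VIM-AS1 (chr10:17214239-17229985) had 2769, 3072 and 2379 against 12, 9 and 17 reads (log2 ratio 11.70, SE 0.075), and AC097460.1, at the start of the histone variant gene H2AFZ, had 1961, 2087 and 1677 against 0, 1 and 3. LIAS (chr4:39458587-39485109), the lipoic acid synthase, shares 363 bases with RPL9 and had 1339, 1503 and 1186 against 369, 291 and 312 reads (log2 ratio 6.02, SE 0.056). LIAS thus had more reads of its own without strand than the other 3.

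The remaining genes of highest directional share had more than one partner or an unusual one. MIF-AS1 (chr22:23894426-23898930) had 6031, 6341 and 5106 directional and 7, 10 and 5 non-directional reads. Its main partner MIF, a cytokine, was itself low without strand, with 16, 10 and 12 reads against 80, 122 and 97 directional reads, and it also shares exon bases on its own strand with AP000350.4, at 0 RPM without strand. AC009133.1 (chr16:29808636-29821252) had 4794, 5284 and 4046 against 64, 40 and 51 reads and overlaps 6 genes on the other strand, of which MAZ, a zinc finger transcription factor, had the highest non-directional level (71.9 RPM ± 7.19, SD, n = 3).

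**Figure D1:**
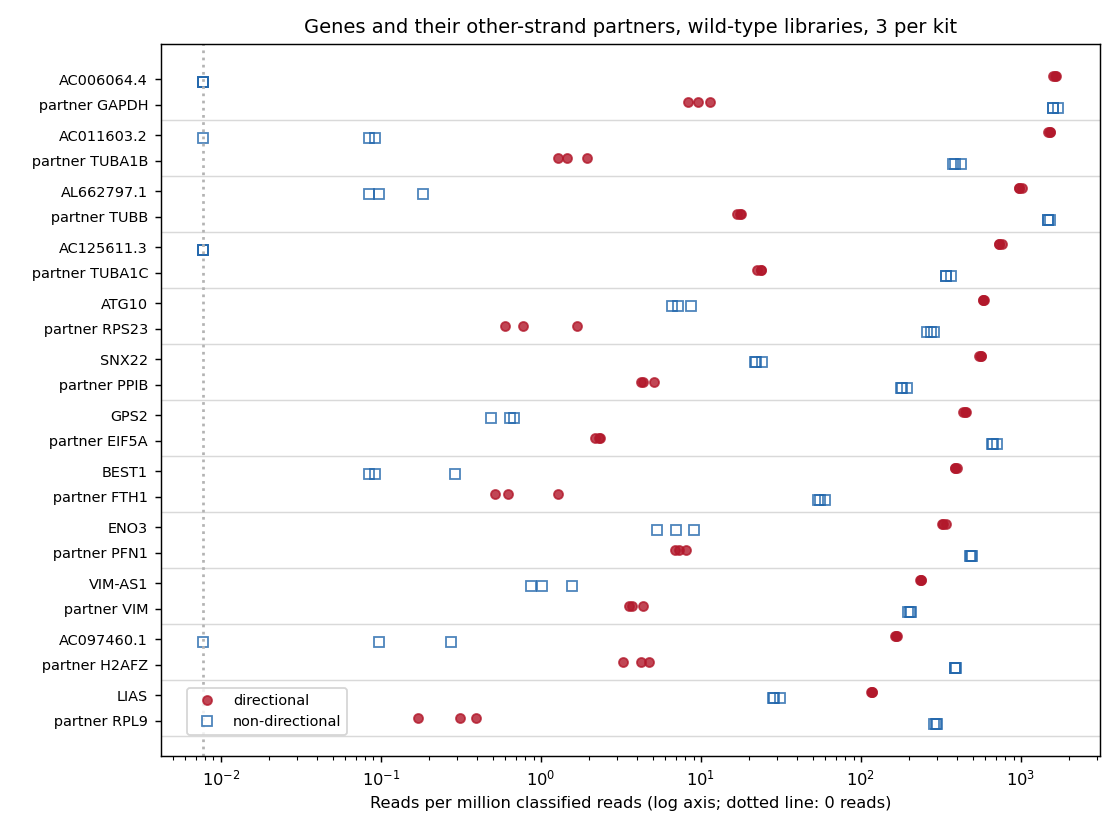
Reads per 1000000 classified reads (log axis, dotted line at 0 reads) of genes of high directional share and of their partners on the other strand, with 1 point for each of the 3 wild-type libraries per kit. The genes of high directional share are high with the directional kit and their partners with the other, as for AC006064.4 (1623 RPM directional, 0 non-directional) and GAPDH (1617 RPM non-directional). The values of a pair cover different bases.

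Across 3781 genes with a single exonic partner, the directional level followed the non-directional level of the partner more than that of the gene itself (Spearman correlation 0.35 against −0.16). The relation was closest for nested genes (0.52 against −0.11, 1240 genes), then tail-to-tail genes (0.33, 1325 genes) and head-to-head genes (0.25, 1216 genes). For pairs in which both genes are protein coding it was 0.20, and the correlation with the gene's own level was then positive (0.073, 1778 genes). These are descriptions across genes, which are not independent replicates, all levels come from the same libraries, and both genes of a pair can enter. A gene entered with at least 20 non-directional reads or with a few directional reads, and its partner needed at least 20 non-directional reads. Genes low in either kit thus entered only through the other kit, which can lower the correlation with the gene's own level.

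**Figure D2:**
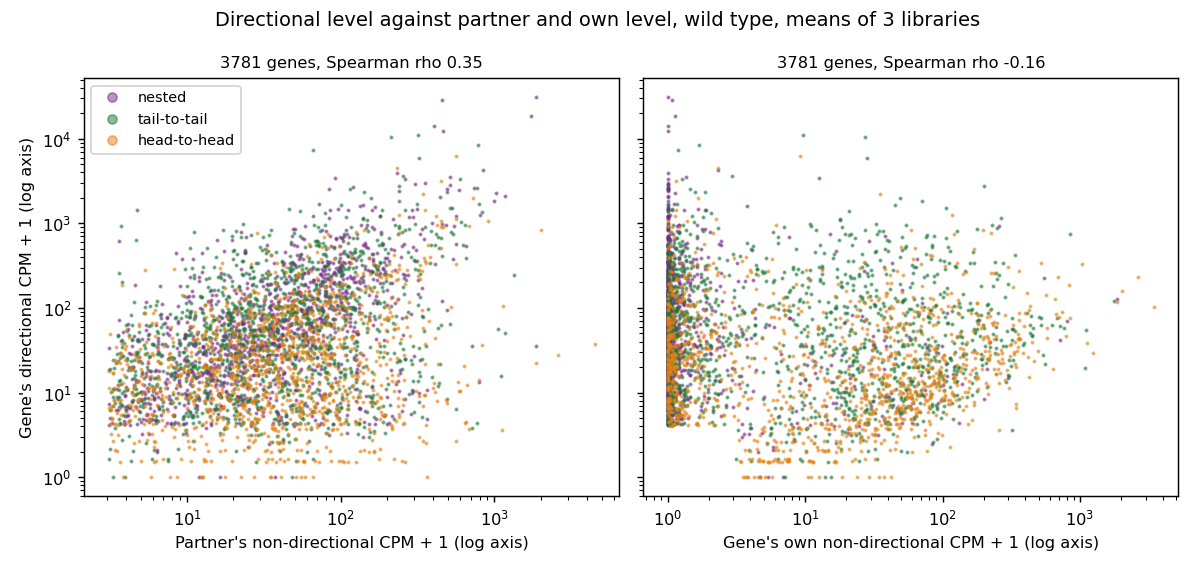
Directional level of each of the 3781 genes against the non-directional level of its other-strand partner and against its own non-directional level (CPM + 1, log axes, means of 3 libraries per kit). The cloud slopes upward against the partner (Spearman correlation 0.35) and slightly downward against the gene itself (Spearman correlation −0.16). Genes could enter through reads in either kit, which can lower the correlation with their own level.

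All directional reads of a gene, divided by its shared kilobases, were set against the level of abundant partners. Reads outside the shared bases are included, so the values are not read densities on those bases. Pairs had at least 100 shared bases and a partner of at least 1000 non-directional reads. The ratio to the partner's non-directional reads per kilobase of exon had a median of 1.13 in 227 nested genes (quartiles 0.0573 and 2.61). This ratio was 0.776 in 226 tail-to-tail genes (0.122 and 2.36). In 205 head-to-head genes it was lower, at 0.165 (0.0240 and 1.01). The ratio was above 1 in 124, 94 and 52 genes of these 3 groups. Taken over whole genes, 12 of 852 genes with such a partner had more directional RPM than the partner had non-directional RPM, and 198 had more than 0.1 times as much.

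Genes without an exonic partner showed how many directional reads a gene draws by itself. The directional RPM as a percent of the non-directional RPM is called the opposite-strand percent below. The name takes the directional tables to count the strand opposite to the gene, which no source used here states. In 530 genes with at least 1000 non-directional reads and no gene on the other strand within 5 kb, the median was 0.444%, with 0.421%, 0.438% and 0.441% in the 3 directional libraries taken singly. The range was 0.0384% to 4.38%, and 39 of the 530 genes exceeded 1%. The median was 0.446% with overlap outside exons (388 genes) and 0.468% with a neighbour within 5 kb (538 genes). It was 0.531% in nested genes (174), 0.622% in head-to-head genes (319), 0.746% in tail-to-tail genes (269) and 1.12% with mixed overlap (158), where 15.2% of genes exceeded 5%.

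**Figure D3:**
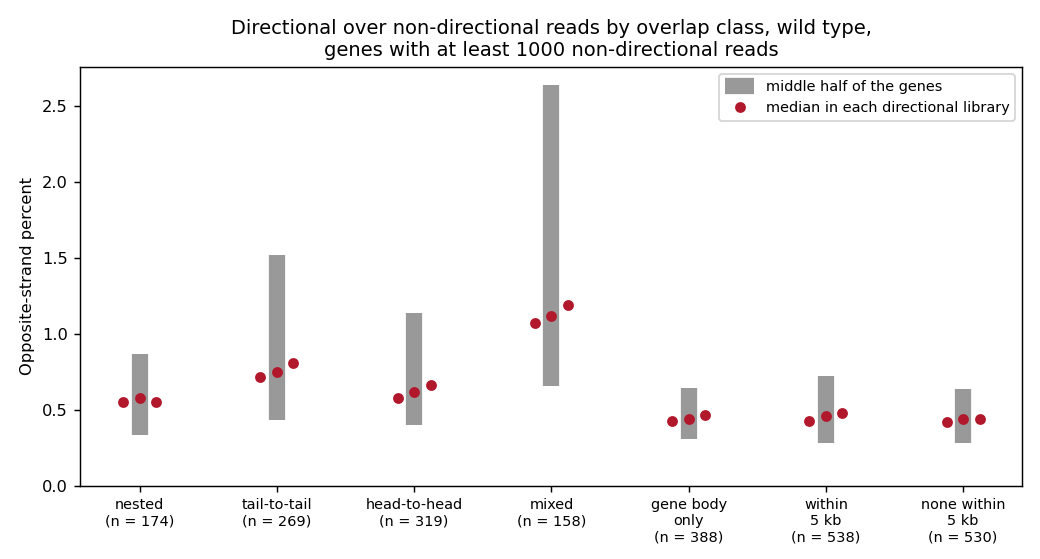
Opposite-strand percent (directional over non-directional RPM) by overlap class, for genes with at least 1000 non-directional reads. Points are medians over genes in each directional library, and grey bars run between the quartiles of the genes. The 3 libraries lie close together in each class. Medians of the percent averaged over libraries, which are not drawn, run from 0.444% in genes with no other-strand gene within 5 kb to 1.12% with mixed overlap.

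Within the 530 genes with no near neighbour the percent moved with base composition. Its median was 0.330% in the 133 genes with the lowest GC content of the longest transcript, then 0.397% and 0.461% in groups of 132, and 0.592% in the 133 with the highest (Spearman correlation 0.345). The correlation with transcript length was 0.203 and with level −0.0643 (all across genes, n = 530). The highest values belonged to SRSF4, a splicing factor, with 84, 56 and 60 directional against 1534, 1394 and 1464 non-directional reads (4.38% ± 1.07, SD, n = 3), and to ZC3H18, an RNA-processing protein, with 50, 65 and 50 against 1321, 1200 and 1260 (4.15% ± 0.360). After them, HMGB2 and HMGN2, chromatin proteins of the high mobility group, stood at 2.27% ± 0.378 and 1.87% ± 0.0774, and ITM2B, a membrane protein gene, at 2.82% ± 0.504. SRSF4 varied more between libraries than HMGN2 did.

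At the other end, a few abundant genes were almost without directional reads. CYCS (chr7:25120091-25125361), the electron carrier cytochrome c, had 2, 0 and 2 directional against 3817, 3129 and 3632 non-directional reads. Its opposite-strand percent over the summed reads was 0.0360% (95% exact Poisson interval 0.00981 to 0.0922), and its log2 ratio was −7.38 (SE 0.22, edgeR adjusted p = 2.77e-240). HNRNPA1, a splicing regulator, had 10, 10 and 5 against 16881, 14687 and 15993 reads (0.0501%, 0.0324 to 0.0739), and RPS3A, a protein of the small ribosomal subunit, had 2, 3 and 0 against 3269, 2837 and 3044 (0.0521%, 0.0169 to 0.121). UQCR10 and NDUFS6, subunits of respiratory complexes, ELOC, a subunit of a ubiquitin ligase, CFL2, an actin-severing cofilin, and SNRPG, a core spliceosomal protein, had 2 directional reads each over the 3 libraries and percents of 0.0461% to 0.0564%. For UQCR10, CFL2 and SNRPG both reads came from directional replicate 2, so that without it their percent was 0. These 8 were chosen as the lowest ratios among abundant genes, and RPS3A was the only one of them with an exonic partner.

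The mitochondrial genes departed from the nuclear ones. Both strands of the mitochondrial genome are transcribed as long precursors that are cut into single RNAs, with MT-ND6 and 8 tRNAs on one strand and the remaining genes on the other. MT-ND6, a subunit of complex I, had 2643, 2887 and 2144 directional and 1924, 1572 and 1805 non-directional reads, an opposite-strand percent of 138% ± 5.00 (SD, n = 3). MT-ND5, its neighbour on the other strand, had 2896, 3091 and 2497 against 9850, 8490 and 9251 reads (29.3% ± 0.508). The other complex I genes lay lower, at 13.8% for MT-ND3, 11.6% for MT-ND4, 8.75% for MT-ND2, 8.70% for MT-ND1 and 6.56% for MT-ND4L. MT-CYB, of complex III, stood at 4.95% ± 0.354, the cytochrome oxidase genes MT-CO1, MT-CO2 and MT-CO3 at 2.75%, 2.81% and 6.17%, and the ATP synthase genes MT-ATP6 and MT-ATP8 at 4.24% and 6.61%. The rRNA genes MT-RNR2 (0.985% ± 0.0674) and MT-RNR1 (0.396% ± 0.0289) were the lowest. All 13 mitochondrial coding genes were thus above the 0.444% of nuclear genes with no near neighbour, and MT-RNR1 was not.

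Directional reads per kilobase rose along the map from MT-RNR1 (4.78 RPM per kb ± 0.349) to MT-ND5 (135 RPM per kb). Over these 13 genes, all on the same strand, the Spearman correlation with gene order was 0.88. The non-directional level did not rise along the map (Spearman correlation −0.31). MT-ND6, on the other strand, stood at 422 directional RPM per kb. MT-CYB, the next gene after MT-ND6 and on the strand of MT-ND5, fell outside this range of the map and stood at 32.0 directional RPM per kb. These genes share their libraries and precursors, so the values are a description. The 8 tRNA genes on the strand of MT-ND6 summed to 580.7 directional and 162 non-directional reads on average, and the 14 on the other strand to 7.67 and 7. MT-TP, next to the control region, had 221, 267 and 182 directional against 163, 147 and 168 non-directional reads, MT-TS1 had 170, 166 and 129 against 0 in each library, and MT-TY 145, 177 and 152 against 1, 2 and 1. Among the tRNA genes, those on the strand of MT-ND6 thus held nearly all directional reads.

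**Figure D4:**
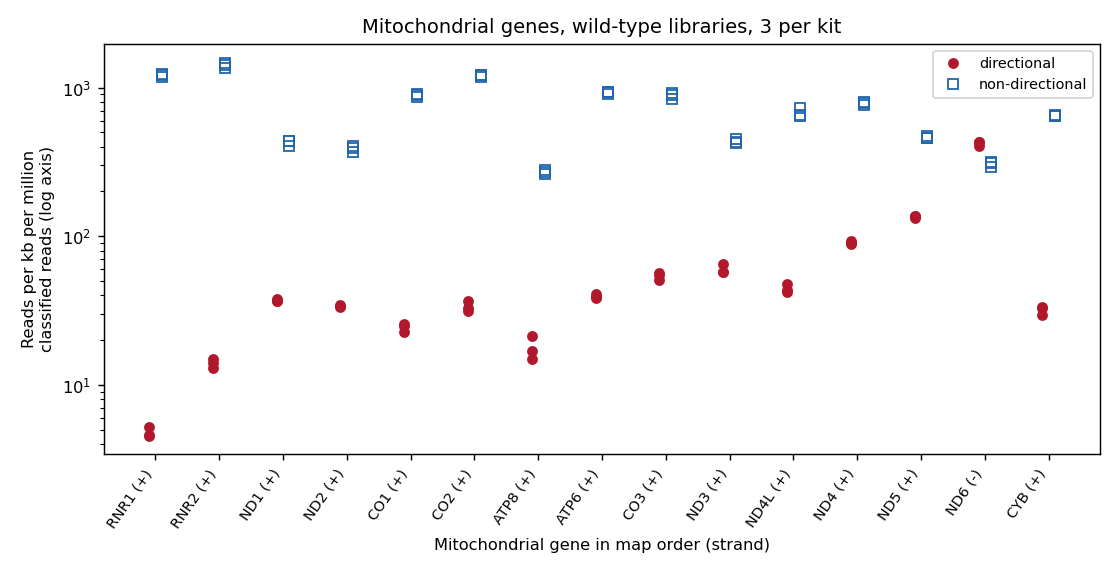
Mitochondrial rRNA and protein-coding genes in map order with their strand, as reads per kilobase per 1000000 classified reads (log axis), with points for the 3 libraries of each kit. Directional levels climb from 4.78 at MT-RNR1 to 135 at MT-ND5, all on the plus strand. MT-ND6, on the minus strand, stands at 422, above its non-directional level, and MT-CYB, on the plus strand, at 32.0.

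The non-directional libraries served as the measure of baseline expression. Of 58735 genes, 13571 reached 1 CPM, 9654 reached 10, 2515 reached 100 and 70 reached 1000. Per kilobase of exon the leading genes were MT-RNR2 (1635 CPM per kb), MT-RNR1 (1395), MT-CO2 (1389), the gamma-actin gene ACTG1 (1155), the elongation factor EEF2 (1132) and the chaperone HSP90AB1 (1078), followed by MT-ATP6, RPS12, ACTB and MT-CO1 (1070, 1035, 1032 and 1024). Ranked by reads without regard to length, EEF2 led with 4557 CPM ± 154, then EEF1A1 with 4518 ± 94.7 (SD, n = 3). In bulk RNA of this kind, fewer cells of a type and less RNA per cell cannot be told apart. Counts of 2062 tested genes are uncertain because they share exon bases with another gene on their own strand.

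Adding the directional reads of exonic partners to a gene's own non-directional reads, a measure chosen after the data had been seen, changed the order of a few abundant genes. GAPDH went from 1617 to 3241 RPM and from rank 16 to rank 3. TUBB went from 1496 to 2484 RPM, TUBA1B from 393 to 1902, TUBA1C from 349 to 1091, TPT1 from 402 to 1051 and FTH1 from 56.1 to 448. TUBA1B thereby moved from rank 312 to 16 and FTH1 from 3857 to 289. Of 2272 genes with a sum of at least 100 RPM, 67 had more partner reads than reads of their own and 377 more than 0.1 times as many, while 90 of the 100 highest genes were among the 100 highest by their own reads.

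The markers of blood cells were mostly absent from this leukemia-derived line. Of 24 blood and myeloid markers, 11 had 0 reads in every non-directional library, among them PTPRC (CD45), SPI1, MPO, CD33, ELANE, HBB and CD3E, and 6 reached 1 CPM. GATA1, the erythroid transcription factor, had 0, 1 and 0 reads. GATA2, a factor of blood progenitors, was the highest with 759, 686 and 708 reads (75.6 CPM ± 1.25, SD, n = 3), followed by RUNX1 at 21.1, KIT at 18.8, MYB at 18.3 and TAL1 at 16.1 CPM. The summed level of the list was 154 to 157 CPM. GATA2, RUNX1, KIT, MYB and TAL1 were the 5 members of the list to reach 10 CPM. SPI1, GATA1 and markers of mature blood cells such as MPO, HBB and CD3E were at or near 0.

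Single markers of other tissues were higher than these. Of 8 neural markers 2 reached 10 CPM. SOX2, a factor of stem and neural progenitor cells, had 8063, 7030 and 7412 reads (789 CPM ± 1.33), and NES, an intermediate filament of neural progenitors, 270 CPM ± 6.96. Of 7 neural markers tested, 3 had a higher directional share and 3 a lower one, against 25% and 70.3% of all genes. GFAP, 1 of these 3 higher genes, lay below the filter level of about 2.08 CPM without strand. It was tested only through its directional reads. The higher ones were the transcription factors PAX6 (23, 31 and 15 directional against 69, 55 and 63 non-directional reads) and NEUROG2 (11, 27 and 15 against 61, 59 and 73) and the astrocyte filament GFAP (9, 5 and 8 against 2, 1 and 3), all of low count. Of 11 mesenchymal markers 7 reached 1 CPM and 5 reached 10 CPM, and 1 was at 0 in every non-directional library. Among those above 10 CPM, VIM stood at 233 CPM, the cadherin CDH2 at 133, the matrix protein FN1 at 51.9 and ZEB1 at 33.7. Of 8 epithelial markers 3 reached 10 CPM, KRT8 at 83.1, KRT18 at 59.1 and ESRP1 at 16.1 CPM, while EPCAM was at 3.74. KRT8, a keratin whose partner on the other strand is KRT18, had 348, 239 and 165 directional against 827, 803 and 734 non-directional reads (30.1% ± 10.1), and its directional level varied more between libraries than that of the pairs above. FN1 had 25, 22 and 17 directional against 490, 501 and 483 non-directional reads.

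Most growth and housekeeping genes were expressed. All 24 genes of BCR-ABL signalling reached 1 CPM, with MYC at 610 CPM ± 11.3 and the phosphatase PTPN11 at 281 ± 13.2. Of the 23 tested, all 23 had a lower directional share, against 70.3% of all genes. All 19 glycolysis genes were lower too, led by PKM (3084 CPM), ENO1 (2584), GAPDH (1869) and LDHA (1419). The 25 cell cycle genes reached 10 CPM, and 24 had a lower share. TYMS, the thymidylate synthase, was the exception with 52, 42 and 35 directional against 520, 476 and 448 non-directional reads (8.51% ± 1.46). Of 18 chaperone genes all 18 were lower, with HSPA8 at 3596 CPM and TCP1, a chaperonin subunit that meets ACAT2, at 464, 473 and 406 against 8609, 7428 and 8036 reads (5.33% ± 0.252). Of 17 genes of translation elongation and initiation, EEF1G was at 0 in every non-directional library. All 16 tested were lower, and EEF1A1 had an opposite-strand percent of 0.0809%. Of the 17 genes, 8 share exon bases with another gene on their own strand, which makes their counts uncertain. Whether this bears on EEF1G was not tested, so its 0 is not read as absent expression.

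Of 82 ribosomal protein genes tested, 81 had a lower directional share and 0 a higher one, against 70.3% and 25% of all genes. The median opposite-strand percent of the 79 with at least 200 reads was 0.295%, and that of all 7740 genes at this depth 0.598%. RPS29, which meets LRR1, was the one above 5%, with 163, 171 and 138 directional against 2321, 2214 and 2168 non-directional reads (6.70% ± 0.168). Of 24 tested genes of DNA repair, a list chosen for its close neighbours, 3 were higher and 19 lower, shares not far from those of all genes (25% and 70.3%). ERCC1, a nuclease subunit of excision repair that overlaps CD3EAP, had 607, 623 and 545 directional against 321, 286 and 292 non-directional reads (189% ± 10.1). MSH6, of mismatch repair, which overlaps FBXO11, had 249, 302 and 218 against 3455, 2888 and 3250 (7.62% ± 0.406), and the third with a higher share was ERCC5, a repair nuclease, with 6, 6 and 7 against 24, 29 and 16. ERCC5, near the filter level without strand, was tested only with the help of its directional reads. ATM, the DNA damage kinase, stood at 7.53% ± 1.78.

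Small RNAs and histone RNAs that carry no poly(A) tail were mostly low in the non-directional libraries. Reads not uniquely aligned are outside these gene counts, and the cause of the low counts was not tested. Of 17 small nuclear and cytoplasmic RNAs, 9 were at 0 in every library and only RN7SL2, a copy of the signal recognition particle RNA, reached 10 CPM (63.3 ± 4.07), and 10 of the 17 share exon bases on their own strand. Of 71 replication-dependent histone genes, 18 were at 0 and 10 reached 10 CPM, with HIST1H2BK the highest at 31.3 CPM. Of the 29 tested, 24 had a lower directional share (70.3% of all genes did), while HIST1H2BN and HIST1H4I had a higher one. Among 18 nuclear long non-coding RNAs, 13 reached 10 CPM, led by MALAT1 (294 CPM ± 16.1), GAS5 (263 ± 13.9) and OIP5-AS1 (243 ± 8.31). OIP5-AS1, which overlaps OIP5, had 149, 178 and 147 directional reads (6.53% ± 0.418). MALAT1 and GAS5 stood at 0.222% and 0.137%. Of 16 tested, 14 had a lower share, against the same 70.3%. Only SNHG14, whose partner on the other strand is the ubiquitin ligase gene UBE3A, had a higher one. It had 174, 162 and 148 directional against 1, 0 and 0 non-directional reads. SNHG14 thus passed the filter through the directional libraries alone.

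**Figure D5:**
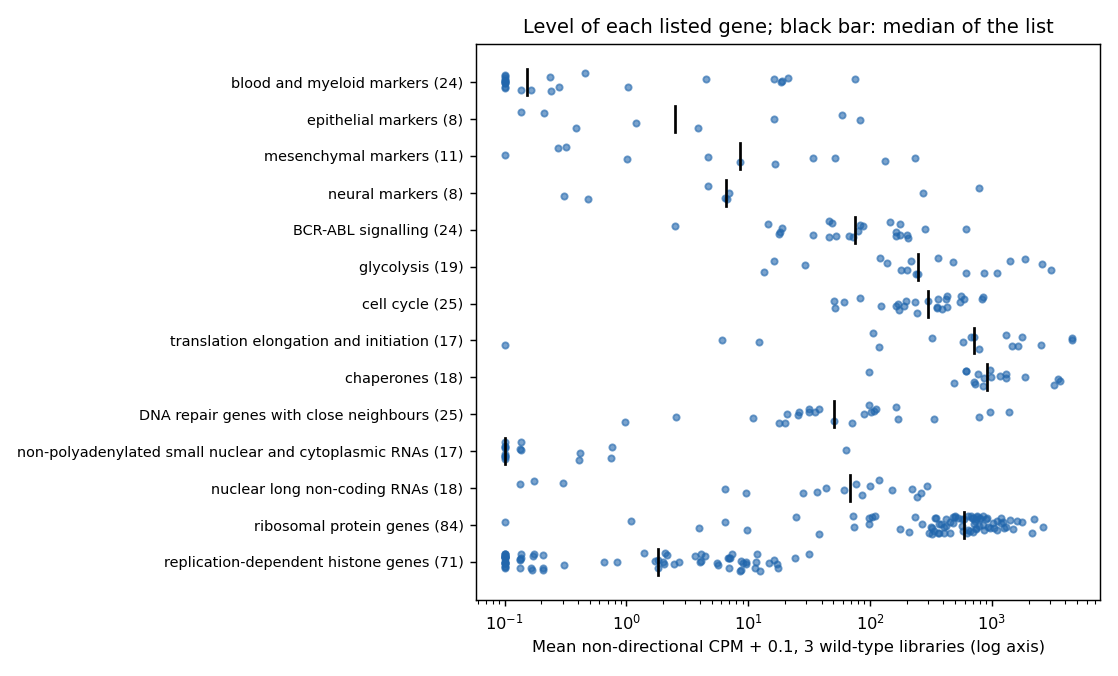
Mean non-directional level of each gene (CPM + 0.1, log axis, 3 wild-type libraries) in the 14 gene lists, with a black bar at the median of each list and the number of genes in brackets. Blood markers lie mostly at the left edge (11 of 24 at 0), while translation, chaperone, glycolysis and ribosomal protein genes lie at the right.

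The knockout libraries, which share no samples with the wild type, gave a comparison of the kits in other cells. There 14032 of 14778 genes tested differed between kits (95%). Of 14166 genes tested in both genotypes, 13555 were called in the wild type and 13264 in both genotypes, with 13242 sharing the direction, and the ratios had a Spearman correlation of 0.86 across genes. The median log2 ratio of these genes was −2.82 for the wild-type and −2.84 for the knockout libraries. The genotype by kit term of a fit over all 12 libraries passed the threshold in 268 of 14709 genes.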

How the data were processed

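The authors deposited raw counts per gene for each library, in the layout of HTSeq, ending in lines for reads outside genes, in several genes or not uniquely aligned. These 3 lines stayed out of library sizes and tests. The labels name Trim Galore 0.4.4, STAR 2.6.0a, SAMtools 1.9, Picard 2.23.8, HTSeq 0.11.1 and hg38. The strand setting, the overlap mode and the annotation are not given in the sources used here. All 58735 gene IDs matched GENCODE release 29 (GRCh38), which gave symbols, positions, exons and sequences. The paper named in the header concerns mouse spleen and gave no methods. Deposited signal per L1 element was not used here. No column lacked a sample (0 unmapped).

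Shares of gene reads (no further normalization factor) were tested with the quasi-likelihood test of edgeR 4.0.16 (R 4.3.3) after filterByExpr (minimum count 10, minimum total 15), at a Benjamini-Hochberg adjusted p of 0.05. SE is the absolute log2 ratio over the square root of F and is approximate. Many adjusted p-values fell under the smallest number the software holds and read 0. The test was checked on simulated counts of 12321 genes and found 98 of 100 genes changed 2-fold and 100 of 100 changed 4-fold, with 10 false calls. Only 200 genes of higher expected count were changed there, and all others were equal between the kits. In the data 95.3% of genes were called, so the simulation does not test calls made when most genes differ. The genotype by kit term came from the same test over all 12 libraries. TMM, DESeq2 1.42.0 (size factors and Wald test), other filters, a replicate block and leaving out each library were the alternatives.

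Genes named were the 8 highest ratios with at least 50 directional reads, the 8 lowest with at least 1000 non-directional reads, the 10 highest directional shares, the 10 highest non-directional levels per kilobase, the mitochondrial rRNA and coding genes, the 4 highest directional shares per overlap class, their partners, and members of gene lists (up to 5 of highest level). Other genes (the highest opposite-strand percents, list members with high percents, tRNA genes, absent markers) were chosen after their values were seen. The members and lists were chosen with earlier results of these data known.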

Additional observations from a re-analysis of the deposited data

Results flagged for a closer look

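Of 120 genes named in the text and tested, 13 had a kit ratio that differed between wild-type and SETDB1 knockout libraries by the genotype by kit term of edgeR over 12 libraries, which called 268 of 14709 genes in all. The values are the wild-type minus the knockout log2 ratio and the opposite-strand percent in each genotype. In 7 genes the ratio was lower in the wild type. MT-CYB differed by −1.38 (adjusted p = 1.00e-107), with 4.95% against 12.8% in the knockout (968, 932 and 741 directional and 7154, 6894 and 7356 non-directional knockout reads). RPS12 differed by −1.44 (adjusted p = 0.00442), with 0.0921% against 0.250% on 16 to 22 directional knockout reads, and EEF1A1 by −1.14 (adjusted p = 4.88e-09), with 0.0809% against 0.185% (62, 49 and 134 directional knockout reads). The other 4 were ZNF517 (−0.70, adjusted p = 0.00172, 38.4% against 62.9%), HSPA8 (−0.66, adjusted p = 0.0103, 0.118% against 0.189%), HIST1H4I (−0.66, adjusted p = 0.0160, 119% against 188%) and ERCC1 (−0.30, adjusted p = 0.0479, 189% against 233%).

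In 6 genes the ratio was higher in the wild type. TUBA1C differed by 1.20 (adjusted p = 2.01e-29), with 6.69% against 2.89% (138, 104 and 85 directional and 3835, 3811 and 3997 non-directional knockout reads). MT-ND6 differed by 0.41 (adjusted p = 3.35e-12), with 138% against 103% (1610, 1505 and 1333 directional and 1514, 1445 and 1496 non-directional knockout reads). MT-ND3 differed by 0.55 (adjusted p = 5.78e-07), with 13.8% against 9.35%. The other 3 were KRT8 (0.65, adjusted p = 3.45e-09, 30.1% against 19.3%), MXRA8 (1.04, adjusted p = 0.0216, 13.6% against 6.61%) and MSH6 (0.29, adjusted p = 0.0436, 7.62% against 6.23%). The cause of these differences was not tested. With 3 libraries per group, single libraries were not screened as outliers.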

How the results depend on the processing

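The genes called numbered 14025, and 9777 with TMM scaling, 9138 with DESeq2 size factors, 8788 with the DESeq2 Wald test and 2240 of 2372 with at least 10 counts in all 6 libraries. Those higher in the directional libraries rose from 3683 to 4705 with TMM, 4847 with size factors, 4948 with the Wald test and 5259 without a filter, and fell to 2319 per classified read and 1069 with at least 10 counts. Those lower fell to 5072 with TMM, 4291 with DESeq2 size factors, 3840 with the Wald test and 1171 with at least 10 counts. The last setting tests fewer genes and drops every gene at 0 in a library, and the others move the zero point (median log2 ratio −0.54 with TMM, −0.35 with size factors, −6.73 per classified read). Without a filter 15930 of 28260 genes were called. Leaving out 1 library gave 13753 to 14011 calls.

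All 27 named genes with a log2 ratio kept their direction and side of the threshold in all 378 values computed under alternatives. Because these genes were chosen for extreme ratios or high directional shares, this outcome was largely fixed by the choice. For 5 of them no test could be had without non-directional replicate 2, because the fit did not converge. Of 108 medians of overlap classes against all genes, 39 moved by more than the spread between libraries and 0 reversed. Without directional replicate 2 the fitted log2 ratios of UQCR10, CFL2 and SNRPG, then at 0 directional reads, went from −7.01, −6.74 and −6.72 to −12.75, −12.47 and −12.46. With at least 10 counts in all 6 libraries the median of nested genes fell from 6.31 to 0.47 and that of head-to-head genes from 0.81 to 0.18 above all genes. The correlation with the partner was 0.39 with at least 100 shared bases and 0.20 with both genes protein coding.

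The median opposite-strand percent was 0.456% with at least 200 reads, 0.421% with at least 5000, and 0.430% to 0.449% with 1 library left out. The share of non-directional reads in genes was 80.4% of all listed reads, which add those not uniquely aligned. Without the 10 genes of most directional reads, antisense genes held 39.6% of directional gene reads, a calculation added after the data had been seen. Of the 10 genes of highest level, 4 were also among the 10 highest per kilobase. Replicate numbers did not pair the libraries of the 2 kits (correlation of deviations 0.045, 0.042 and −0.012 for libraries of the same number, over 719 genes), and a replicate block gave 13933 calls, 13932 of them the same in direction. Directional depth limits the low genes most, with 4798 genes at 10 reads or more per library against 13578.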

Other observations

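Genes of low level with no gene on the other strand within 5 kb were searched, after the data had been seen, for at least 20 directional reads and an opposite-strand percent of at least 10%, and 7 were found. ZBTB45, a zinc finger and BTB domain gene (chr19:58513530-58538911, minus strand), had 114, 141 and 102 directional against 323, 322 and 329 non-directional reads (34.7% ± 2.08, SD, n = 3). HIST1H4I, a histone H4 gene (chr6:27138588-27139881, plus strand), had 91, 80 and 74 against 65, 67 and 64 (119% ± 13.6). In RefSeq annotation of GRCh38 the histone H2B gene H2BC12, named HIST1H2BK on the minus strand in GENCODE, spans HIST1H4I, so the absence of a neighbour rests on the annotation used. In both genes the kits did not overlap, and in HIST1H4I the directional libraries held more reads although they had fewer gene reads in all.

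The pseudogene RPLP0P2 stood at 88.3% ± 8.97 and MS4A2, which encodes the beta chain of the mast cell IgE receptor, at 95.3% ± 14.9, with 46, 37 and 36 directional against 45, 36 and 39 non-directional reads. The remaining 3 were the pseudogene ASS1P12 (85.8% ± 17.2), the zinc finger gene ZNF517 (38.4% ± 5.45) and MXRA8 (13.6% ± 1.74). All 7 were chosen on these values, so no test is given.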
